A study of Hordeum vulgare with 6 samples.

Results

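Phosphoenolpyruvate carboxylase (HORVU3Hr1G029200) and a kinase of that enzyme, PPCK2 (HORVU6Hr1G058780), were taken by identifier from the expression table of barley shoots, and are 2 of the 39841 genes listed in it. Both identifiers were found once each. The names are those the study gives them, since neither identifier matched the RefSeq gene table used here.

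The shoots were of barley (Hordeum vulgare), line Rolap, on soil that held 8 mg of phosphorus per kg. The low-Pi group (3 samples) received no further phosphate and the control group (3 samples) received 60 mg of phosphorus per kg. Both groups grew in 16 h of light at 22 °C and were harvested on day 23, and each sample pooled the plants of a single pot. Poly(A) RNA was sequenced, so transcripts without a poly(A) tail are under-represented.

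Phosphoenolpyruvate carboxylase adds bicarbonate to phosphoenolpyruvate, which gives oxaloacetate and sets phosphate free. The reaction bypasses the step at which pyruvate kinase would use phosphoenolpyruvate to make ATP, and in C3 leaves such as those of barley it feeds carbon into organic acids and amino acids rather than into a carbon-concentrating cycle. The plant-type enzyme is inhibited by malate, and phosphorylation near its amino terminus by a small dedicated kinase relieves that inhibition. Such kinases are among the smallest known protein kinases and are regulated largely through the amount of their transcript. In Arabidopsis, kinase genes of this family respond to phosphate supply.

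For each gene the table holds its position and 1 expression value, the higher of the low-Pi and control group means, called the level below. This column does not say which of the groups gave the higher mean, and it carries no value per sample, so that a level has no replicate error and depth per sample is unknown. The columns of the authors' own comparison were not used, and so no size of difference between low-Pi and control shoots is given for either gene. Directions are given only as the study reports them. The unit of the levels is not named. TPM and RPKM, which the methods of the study name, are both scaled to exon length, and levels are set side by side between genes on that basis, within this table only.

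The carboxylase gene lies on the minus strand of chromosome 3H, from 133974982 to 133979219 on the IBSC_v2 assembly, a span of 4238 bases including any introns. PPCK2 lies on the minus strand of 6H, from 384884408 to 384886037, a span of 1630 bases. The carboxylase span is longer than that of 70.8% of the listed genes, and the PPCK2 span is longer than that of 40.2%. No other listed gene overlaps either of them.

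The sequence before each gene is shown because the study searched it for a pair of short motifs tied to phosphate supply. P1BS, spelled GNATATNC with N for any base, is the site bound by the PHR1 family of transcription factors in Arabidopsis, and its letters read the same on either strand. The PHO element is spelled ATGCCAT. The study searched 2 kb before each gene. Here only the first bases of those sequences were searched, in fragments of 96 genes that are up to 399 bases long, so most of each 2 kb was not searched and copies of either motif there are not counted. Positions are counted from 1 at the 5′ end of a fragment. Distances and genome positions rest on assumptions that could not be checked without a genome, namely that the sequences are written along the strand of the gene, with the fragment at the end farther from it, and that they end at the base before the listed gene boundary.

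The first 300 bases of the carboxylase fragment, chr3H:133980920-133981219 on the minus strand, held the PHO element, here in capitals:
carboxylase upstream: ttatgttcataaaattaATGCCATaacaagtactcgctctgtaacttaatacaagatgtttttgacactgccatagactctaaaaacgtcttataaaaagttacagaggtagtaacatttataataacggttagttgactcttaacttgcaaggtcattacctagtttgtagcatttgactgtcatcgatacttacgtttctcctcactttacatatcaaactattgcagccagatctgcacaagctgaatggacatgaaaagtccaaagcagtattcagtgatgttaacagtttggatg

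Bases 68 to 367 of the PPCK2 fragment, chr6H:384887671-384887970 on the minus strand, held P1BS at a pair of places, here in capitals:
PPCK2 upstream: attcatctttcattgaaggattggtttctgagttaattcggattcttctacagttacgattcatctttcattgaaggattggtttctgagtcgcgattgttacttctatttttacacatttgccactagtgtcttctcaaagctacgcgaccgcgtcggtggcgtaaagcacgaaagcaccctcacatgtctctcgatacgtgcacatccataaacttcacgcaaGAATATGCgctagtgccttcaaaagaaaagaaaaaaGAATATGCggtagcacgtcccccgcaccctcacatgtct

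In the carboxylase fragment the PHO element occupied bases 18 to 24, which places its first base 1983 bases before the gene. P1BS was not among the 399 letters of this fragment, which says nothing of the longer stretch between it and the gene. In that stretch the study lists copies of P1BS and a further PHO element. In the PPCK2 fragment P1BS began at base 293 and again at base 329, that is 1708 and 1672 bases before the gene. The PHO element was not among the letters of that fragment, with the same limit. For PPCK2 the study lists a further P1BS copy later in the same 2 kb.

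Both P1BS copies of PPCK2 have the same 8 letters, and they are compared here with 12 bases on either side:
P1BS, copy farther from PPCK2: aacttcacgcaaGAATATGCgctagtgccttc
P1BS, copy nearer to PPCK2: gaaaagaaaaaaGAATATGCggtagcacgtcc

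The copies start 36 bases apart, and the stretch that is identical around both is 11 bases long. Across the 96 fragments, P1BS was found in 9 (9.38%) and the PHO element in 9 (9.38%), with both strands searched. The PPCK2 fragment was one of 3 with at least 2 copies of P1BS, and no fragment held more than 1 PHO element. These fragments belong to genes that the study selected on the same samples, so the shares describe that selection and not barley genes in general, and they hold for the fragments only, not for the 2 kb sequences, which can hold further copies. A match is a run of letters and was not tested as a binding site.

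The base composition of both fragments lay within the range of the others. G and C made up 37.6% of the carboxylase fragment and 43.6% of the PPCK2 fragment, against a median of 44.4% over the 96 fragments (27.6% to 63.9%). The fragments differed more in repeated sequence. The PPCK2 fragment holds an exact repeat of 33 bases, starting at bases 68 and 126, and only 2 of the 96 fragments hold a longer one. The longest exact repeat in the carboxylase fragment was 7 bases, and the median over all fragments was 9. The repeated unit is shown once, with its copies visible near the start of the PPCK2 sequence above:
PPCK2 repeat: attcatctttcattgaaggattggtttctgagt

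**Figure D1:**
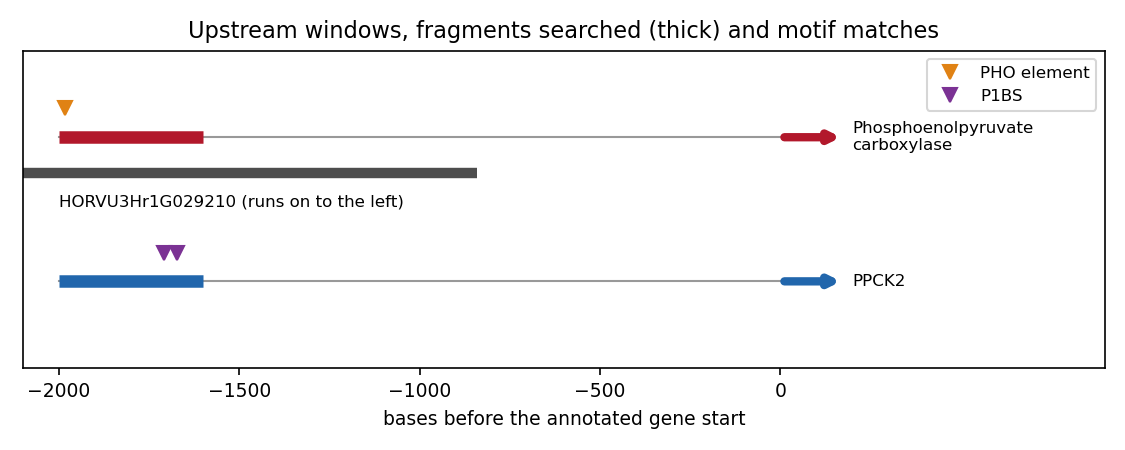
Map of the 2 kb before each gene, in bases before the annotated start, with the fragment that was searched as a thick line, the motif matches as triangles and the neighbouring gene HORVU3Hr1G029210 as a dark bar (arrows mark the direction of each gene and are not to scale). Under the assumptions on strand and gene boundary, the carboxylase fragment lies inside the span of HORVU3Hr1G029210, while no listed gene reaches the PPCK2 window. The thin line was not searched.

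Phosphoenolpyruvate carboxylase had a level of 29.5 and PPCK2 a level of 14.6. Of the 27022 genes with a level above 0, 1818 were above the carboxylase, which put it at the 93.3rd percentile. PPCK2 stood at the 88.0th percentile, with 3241 genes above it. Both genes were therefore in the upper part of the range of levels, the enzyme above its kinase, with 1422 genes between them. The study reports both as induced in low-Pi shoots, so these places need not hold in control shoots.

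The median gene had a level of 1.22, so that the carboxylase stood at 24.1 times and PPCK2 at 11.98 times the median. The level of the carboxylase was 2.01 times that of PPCK2. Each level is the higher mean of its own gene. The column used does not name the group, but with both genes reported by the study as induced, both levels would be low-Pi means. No error can be attached to the ratio. Within their own chromosomes the carboxylase ranked below 230 of the 3981 genes above 0 on 3H, and PPCK2 below 403 of the 3001 on 6H.

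**Figure D2:**
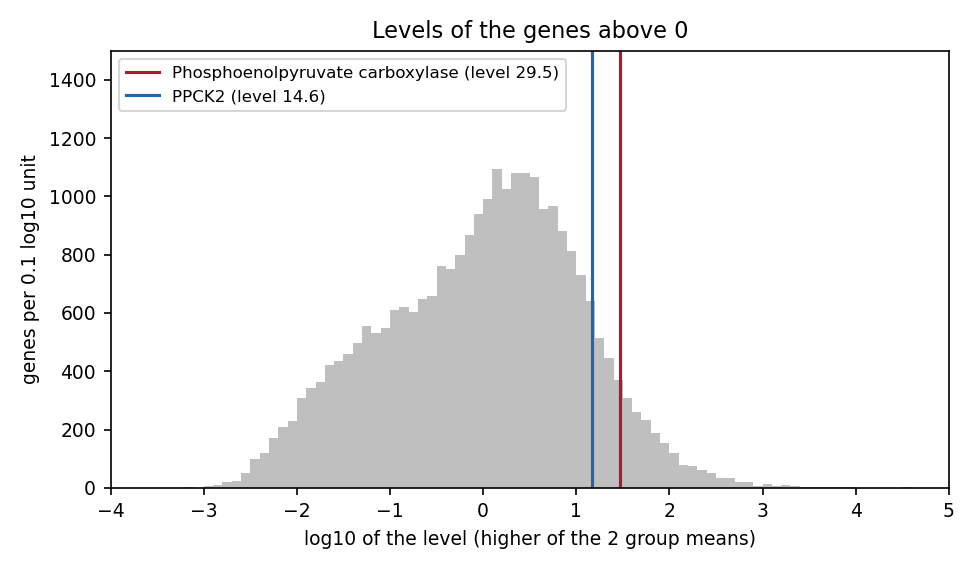
Histogram of the 27022 genes above level 0, with the log10 of the level (the higher of the low-Pi and control means) on the x axis and the number of genes per bin on the y axis. Lines mark the carboxylase at 29.5 and PPCK2 at 14.6, both right of the peak of the distribution.

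The 2 genes were then set beside 28 others in 6 lists of related functions. Most of these were picked by the study for their response in these samples, so their levels show where the pair stands among such genes and are no independent evidence of a response. The study reports some of them as induced and others as repressed in low-Pi shoots. Each level is the higher mean of its own gene, so levels of different genes can come from different groups. An order among levels need not hold within either group. Sorted together with the 28, the carboxylase came 5th and PPCK2 10th of 30. The listed genes had a median level of 7.08, with 4 above the carboxylase and 8 above PPCK2.

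The 8 other listed enzymes that free phosphate all had lower levels than the carboxylase, between 2.69 and 22.2. Further genes for such enzymes were not looked at. Purple acid phosphatases cleave phosphate from organic esters, and the highest of the 4 listed, HORVU3Hr1G076060, had a level of 22.2, above PPCK2. The other three had levels of 8.89, 6.28 and 2.69, below both genes. Inorganic pyrophosphatases split pyrophosphate into phosphate, and HORVU3Hr1G068380 had a level of 15.1, next to that of PPCK2, while HORVU3Hr1G068390 had 5.59. The phosphatase HAD1 had a level of 8.15 and the S1/P1 nuclease, which degrades nucleic acids, one of 6.71.

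Among the 4 genes listed for lipid remodelling, GDPD1, a glycerophosphodiester phosphodiesterase, was the one gene with a level above the carboxylase, at 31.6. The galactolipid synthase MGD2 had a level of 5.81, the sulfolipid synthase gene SQD2-like had 7.54 and the diacylglycerol lipase had 0.975.

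Of the 7 genes of phosphate signalling and transport, IPS1 was above both genes. IPS1, a noncoding RNA that sequesters miR399 in Arabidopsis, had a level of 685, which is 23.3 times that of the carboxylase. SPX-MFS1, of a family of vacuolar phosphate transporters, had a level of 18.5, between the carboxylase and PPCK2. The study reports SPX-MFS1 as repressed in low-Pi shoots, so this place among levels need not hold within either group. SPX1, SPX5, PHO2, SPX-MFS2 and the inositol phosphate kinase were between 2.58 and 7.92, all below PPCK2. SPX proteins sense inositol pyrophosphates, and PHO2 removes phosphate transporters.

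PPCK2 had a higher level than each of the 3 other listed genes of protein phosphorylation. HORVU3Hr1G091170, listed as an inactive protein kinase, had a level of 3.42, the cysteine-rich receptor-like protein kinase 10 had 3.06 and the phosphatase DSP4 had 1.49. PPCK2 was 4.28 times the highest of them.

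The nitrate genes were included because carboxylase activity supplies carbon skeletons for the amino acids made from nitrate. Nitrate reductase, which reduces nitrate to nitrite, had a level of 25.5, just under that of the carboxylase. The nitrate-responsive repressor gene NIGT1 had a level of 7.45, the transporter gene NRT2.1 had 3.69 and the NRT2 activating protein had 0.431.

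A pair of chlorophyll a-b binding protein genes, which belong to green tissue, was also set beside the carboxylase. The study selected both genes on these same shoots, so their levels are no independent check of the tissue label. HORVU1Hr1G088920 had a level of 411 and HORVU6Hr1G016890 one of 350, which is 13.9 and 11.9 times the level of the carboxylase.

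**Figure D3:**
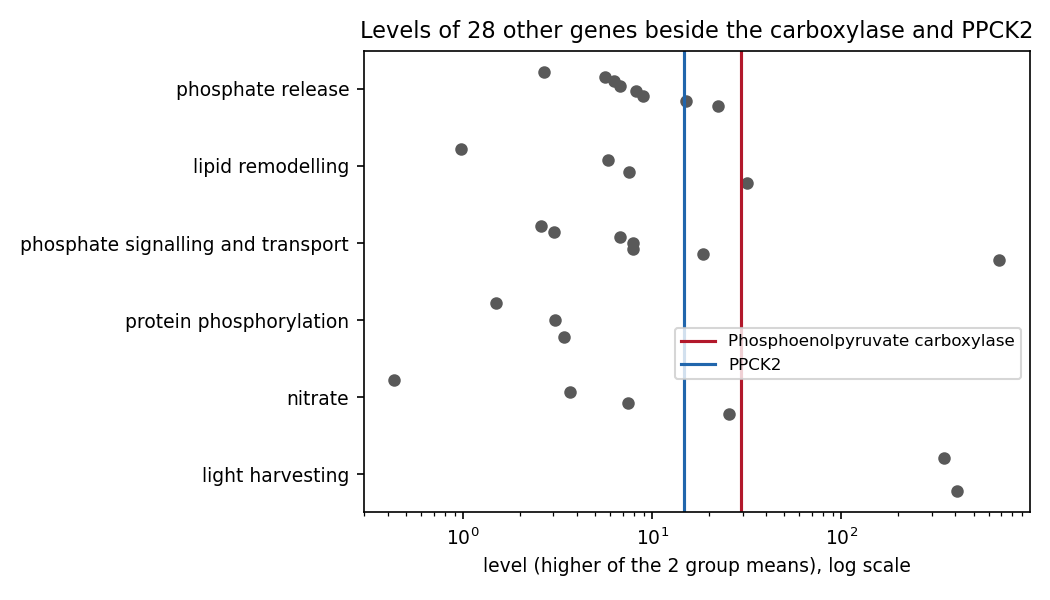
Levels of the 28 genes (points, the higher of the low-Pi and control means, log scale) by list, with lines at the carboxylase (29.5) and PPCK2 (14.6). Only GDPD1, IPS1 and the light harvesting pair lie right of the carboxylase line.

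Within 1 Mb on either side, the carboxylase had 15 listed neighbours, of which 14 were above 0, and their median level was 0.886. HORVU3Hr1G029320, at 57.4, was the one neighbour above the carboxylase (6.67% of them), against 4.56% of all listed genes. PPCK2 had 13 neighbours, 11 of them above 0, with a median level of 0.464, and 3 of them (23.1%) were above it, against 8.13% of all listed genes. The median over all listed genes, those at 0 included, was 0.189. With so few neighbours, nothing particular to either place is read from these shares. The 3 neighbours above PPCK2 were HORVU6Hr1G058750 at 147, HORVU6Hr1G058820 at 63.9 and HORVU6Hr1G058830 at 47.4, and HORVU6Hr1G058740 had 14.6026 against 14.6253 for PPCK2. HORVU6Hr1G058820 and HORVU6Hr1G058830 overlap on opposite strands, so their reads may not be told apart if strand was ignored in counting. Neighbours other than the nearest were singled out after their values were seen.

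Over the 37577 genes placed on 1H to 7H, the median number of neighbours within 1 Mb was 22. The numbers for the carboxylase and PPCK2 were at the 33.0th and 26.6th percentile, so both genes lie in stretches with fewer listed genes than the median.

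The nearest neighbours differed between the pair. On the side of higher coordinates, which is upstream for a gene on the minus strand, HORVU3Hr1G029210 begins after a gap of 841 bases from the carboxylase. It runs from 133980061 to 133988849 on the same strand and had a level of 5.64. On the downstream side the nearest gene to the carboxylase was HORVU3Hr1G029160, after 420985 bases, at a level of 4.34. PPCK2 had no such close gene upstream. HORVU6Hr1G058790, after 361788 bases, was the nearest there and had a level of 0.0127, and downstream HORVU6Hr1G058750 lay 80659 bases away.

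**Figure D4:**
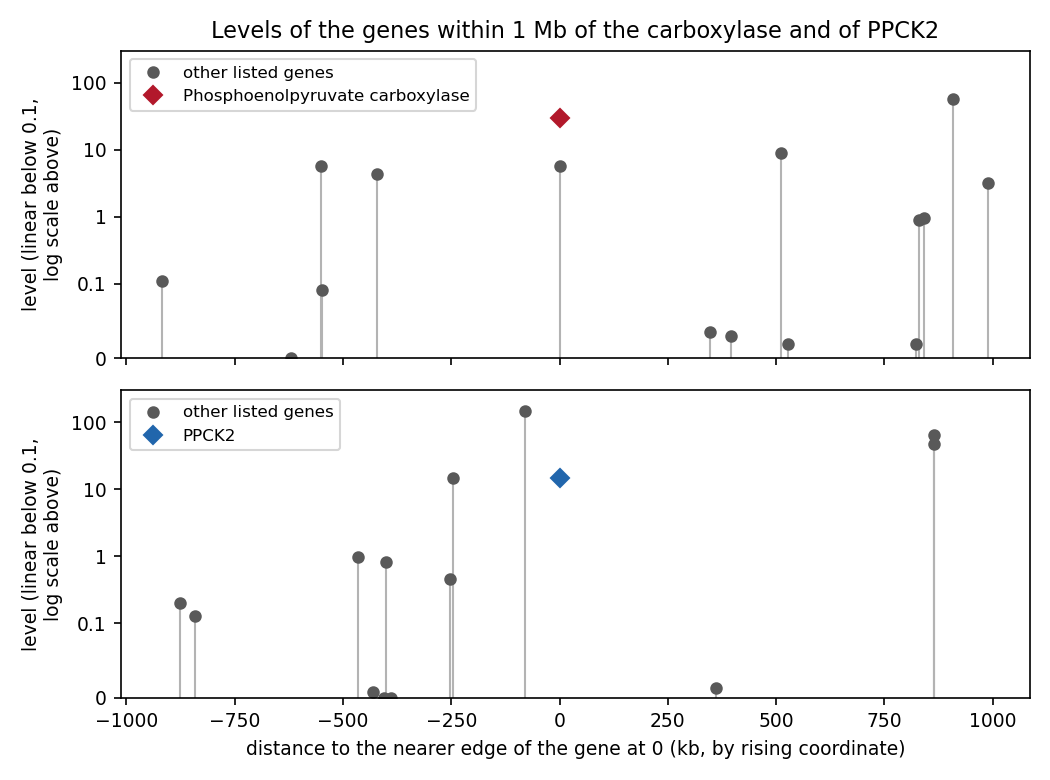
Levels (y axis, linear below 0.1 and logarithmic above) of the listed genes within 1 Mb against the distance in kb from the carboxylase (upper panel) and PPCK2 (lower panel), by rising coordinate. One neighbour of the carboxylase and 3 of PPCK2 are above the gene marked by the diamond, and HORVU6Hr1G058740 is level with PPCK2.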

How the data were processed

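The study sequenced poly(A) libraries (Lexogen SENSE) from 3 low-Pi and 3 control shoot samples in pairs of 150 cycles, starting from 1500 ng of total RNA. The authors mapped the reads to the barley genome IBSC_v2 with an Ensembl Plants annotation in CLC Genomics Workbench. The program version, its strand setting and its rule for multi-mapping reads were not given in the sources used here.

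One table, of 39841 genes, was used. From it, the position and the highest group mean were read, a normalised signal whose unit the authors did not name in the deposited table. The methods of the study name TPM and define RPKM, both scaled to exon length. The signal summed to 589470, below what the higher of a pair of TPM means must reach over a full gene set, so it is not plain TPM over the listed genes alone. It is called a level. No column holds a value per library. A further 5 columns hold the authors' own comparison of low-Pi with control (log2 fold change, fold change, p-value and its FDR and Bonferroni adjustments), and they were not used. No test was therefore run.

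A percentile is the share of genes above 0 that have a lower level. Neighbours were counted when their edge lay within 1 Mb. Motifs were searched on both strands of upstream fragments read from a supplementary table of the study, with undetermined bases never counted as a match. Searches, percentiles and repeats were tested on simulated data.

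The text names both genes, their nearest neighbours and the 28 genes of fixed lists. The genes and lists were chosen with earlier results of these data known. Alternatives were other gene sets for the percentiles, pseudocounts, windows, strands and fragments. RefSeq names matched 0 of 39733 identifiers.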

Additional observations from a re-analysis of the deposited data

How the results depend on the processing

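The percentile depended on which genes were counted. Among all listed genes, those at 0 included, the carboxylase stood at the 95.4th and PPCK2 at the 91.9th percentile, and among genes with a level of at least 1 they stood at the 87.3rd and 77.4th. On chromosomes 1H to 7H alone they stood at the 93.2nd and 87.9th. The ratio of the carboxylase to PPCK2 was 1.95 with a pseudocount of 1 and 2.01 with a pseudocount of 0.1. Within 200 kb each gene had 1 neighbour, and within 5 Mb the carboxylase had 59 and PPCK2 had 47. Counting only neighbours above 0 left 14 for the carboxylase and 11 for PPCK2. On the listed strand alone, P1BS was in 9.38% of fragments and the PHO element in 7.29%. Among fragments without undetermined bases the shares were 9.41% and 10.6%. The share of genes whose upstream window is reached by another gene, added after the data were seen, was 12.9% for a window of 1 kb and 8.66% for genes on the same strand, against 15.9%. No paired analysis was possible because the table holds no value per sample. For the same reason no sample could be left out, and depth sets no limit that can be stated.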

Other observations

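The 2 kb before the carboxylase, from 133979220 to 133981219 on chromosome 3H, is shared with its neighbour. Of these bases 1159 lie within the span of HORVU3Hr1G029210, and the whole fragment that was searched, PHO element included, is inside that span, under the assumptions on strand, fragment end and gene boundary given above. The 841 bases between both genes were not searched here, so copies of either motif there are not counted. Under the same assumptions, the study's own search lists a copy of each motif within these 841 bases. Another listed gene reaches into the 2 kb window of 5982 of the 37577 genes on 1H to 7H (15.9%), and of 9 of the 92 genes there whose fragments were used (9.78%). The window of PPCK2, from 384886038 to 384888037 on 6H, is reached by none. Whether the carboxylase and HORVU3Hr1G029210 share transcripts was not tested. This comparison was chosen after the positions were seen.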
